A study of Mus musculus with 16 samples.

Results

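The subunits of respiratory complexes II to V and cytochrome c were followed through the left ventricles of male and female mice with a narrowed aorta. They were taken as the probe sets that the platform annotation gives exactly 1 gene symbol, where that symbol is Sdha, Sdhb, Sdhc, Sdhd, Cyc1 or Cycs or begins with Uqcr, Cox4, Cox5, Cox6, Cox7, Cox8 or Atp5. This gave 86 of the 22690 probe sets on the array and 47 genes: 4 of complex II, 9 of complex III, the gene of cytochrome c, 16 of complex IV and 17 of complex V. The 16 arrays each held left ventricular RNA of 1 C57BL/6J mouse aged 12 to 14 weeks. The 4 groups of 4 arrays were the shams and the TAC mice of each sex. TAC, transverse aortic constriction, narrows the aorta between the branches of its arch, so that the left ventricle works against a higher load and hypertrophies. RNA was taken 14 days after the operation. All groups carried the same strain background and no engineered allele is named in the labels, which say only that the control mice were sham-operated.

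The respiratory chain of the inner mitochondrial membrane passes electrons from NADH (through complex I) or succinate (through complex II) to ubiquinone, on to complex III, by cytochrome c to complex IV, and there to oxygen. Complexes I, III and IV pump protons, and complex V, the ATP synthase, uses the returning protons to make ATP. The working heart draws most of its ATP from this pathway, and cardiomyocytes are packed with mitochondria. Complex II is encoded wholly by nuclear genes, whereas the catalytic core of complex IV and parts of complexes III and V are encoded by mitochondrial DNA and are not among the 47 genes.

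Values are the deposited signals of each probe set, on a linear scale without a unit. A difference is a difference of group means of log2(signal + 16), so that a value of -1 stands for a halved signal, and it is given ± its standard error (SE). A gene is said to have risen or fallen where limma's adjusted p, corrected by Benjamini-Hochberg over all 13576 probe sets tested, was below 0.05. Each gene was read on its probe set of highest mean unless another probe set is named. A signal depends on the probes as well as on the transcript, so signals were compared between arrays and not between genes.

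Of the 86 probe sets, 81 were bright enough to be tested. The 5 below the limit were single probe sets of Uqcrq, Cox5b, Cox7c, Cox8a and Atp5g2, each gene having at least 1 other probe set that was tested. All 47 genes were thus tested on their probe set of highest mean. The members lay at the bright end of the arrays: 34 of the 47 genes had a mean signal above 10000, against 167 of all 8272 genes tested (2.02%). Cox4i2, Cox6b2, Cox7c and Cox8c had means below 1000.

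Group averages of several measures moved with the operation across the series. Single arrays had median signals of 189.7 to 222.3. A running number in the sample titles follows the groups in blocks; what it counts is not stated, and if it is an order of processing it cannot be told apart from the groups. The log2 signal of the 5' probe set of 18S rRNA, a control for RNA input and labelling, averaged 13.35 among male shams, 10.34 in male TAC, 11.96 among female shams and 10.20 in female TAC. Male TAC 5, at 13.16, lay within the male sham range of 12.65 to 13.82, and the other male TAC arrays at 9.107 to 9.566. Female sham 1 (10.75) lay close to female TAC 1 (10.74). The ratio of 3' to 5' signal of Gapdh, a control for RNA integrity and labelling, averaged 0.885 and 1.081 among male shams and TAC and 0.865 and 0.990 among female shams and TAC. In males it ran from 0.837 to 0.921 in shams and from 1.004 to 1.164 in TAC. The female ranges were 0.785 to 0.918 in shams and 0.958 to 1.026 in TAC. Every TAC array thus lay above every sham, and this ratio cannot be told apart from the operation. All 8 ventricular cardiomyocyte markers were above the limit, as the tissue label implies, and their summed signal was 262515 to 306742 among male shams, 219974 to 257535 in male TAC, 267073 to 282657 among female shams and 191258 to 236254 in female TAC. Of these 8 markers, 5 fell in males and 6 in females. The fibroblast marker sum ran the other way, at 17255 to 20375 among male shams and 28282 to 46580 in male TAC. In females it was 20145 to 23625 among shams and 27204 to 38551 in TAC. Of the 8 fibroblast markers, 5 rose in males and 4 in females (Col1a1, Col1a2, Col3a1 and Pi16). Female differences of Tcf21, Pdgfra, Lum and Dcn were -0.19, -0.26, -0.40 and -0.13, none past the threshold. In males Dcn differed by -0.08. The macrophage sum was 6318 to 8568 among male shams, 8610 to 9438 in male TAC, 6299 to 6880 among female shams and 7399 to 11123 in female TAC. Of the 6 macrophage markers, 2 rose in males and 1 in females. None of the 6 endothelial markers passed the test in either sex. Of the 3 atrial markers, Myl4, which encodes the atrial essential light chain, was above the limit and rose in both sexes, by 1.28 ± 0.34 in males (limma adjusted p = 0.0109) and 1.10 ± 0.34 in females (adjusted p = 0.0307). The atrial sum was 304 to 409 in the male sham group and 764 to 2379 after male TAC, and 267 to 503 and 338 to 2299 in females. Of the smooth muscle markers, Tagln rose in males by 0.71 ± 0.23 and Myh11 fell in females by 1.34 ± 0.43. The atrial markers Sln and Myl7, the smooth muscle marker Cnn1, the adipocyte markers Lep and Adipoq, the brown adipocyte marker Ucp1 and the erythroid marker Hba-a1 were below the limit.

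After TAC, a minority of the subunit genes fell, none rose on its probe set of highest mean, and most of the rest lay slightly below the sham level. In males 9 of the 47 genes fell: Sdha, Sdhc, Uqcrfs1, Cox7a1, Atp5b, Atp5g2, Atp5a1, Atp5j and Atp5pb. Among all genes tested, 7.77% fell and 8.1% rose in males. In females 6 of the 47 fell: Sdha, Sdhd, Cox4i1, Cox7a1, Atp5a1 and Atp5g2, where 6.69% of all genes fell and 6.37% rose. Sdha, Cox7a1, Atp5a1 and Atp5g2 fell in both sexes. The median difference over the 47 genes was -0.18 in males and -0.17 in females, beside -0.01 over all 8272 genes in each sex. The sign was negative for 35 of the 47 genes in males and for 37 in females, and for 4258 and 4270 of all 8272 genes.

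By complex, the median difference was -0.29 in males and -0.33 in females for complex II, -0.17 and -0.16 for complex III, -0.33 and -0.29 for cytochrome c, -0.08 and -0.11 for complex IV, and -0.18 and -0.16 for complex V. Complex II had the lowest median of the 4 complexes in both sexes. These medians describe the genes listed and were not tested against each other. The whole set's summed signal in TAC was 87.9% of that in shams in males and 88.5% in females, while the summed signal of the 8 cardiomyocyte markers was 80.5% and 79.4% of sham. In a bulk sample, fewer cardiomyocytes and less transcript per cardiomyocyte cannot be told apart, and the part of cell composition and of the RNA quality measures in the values that follow was not tested gene by gene beyond the covariate fits given later.

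**Figure D1:**
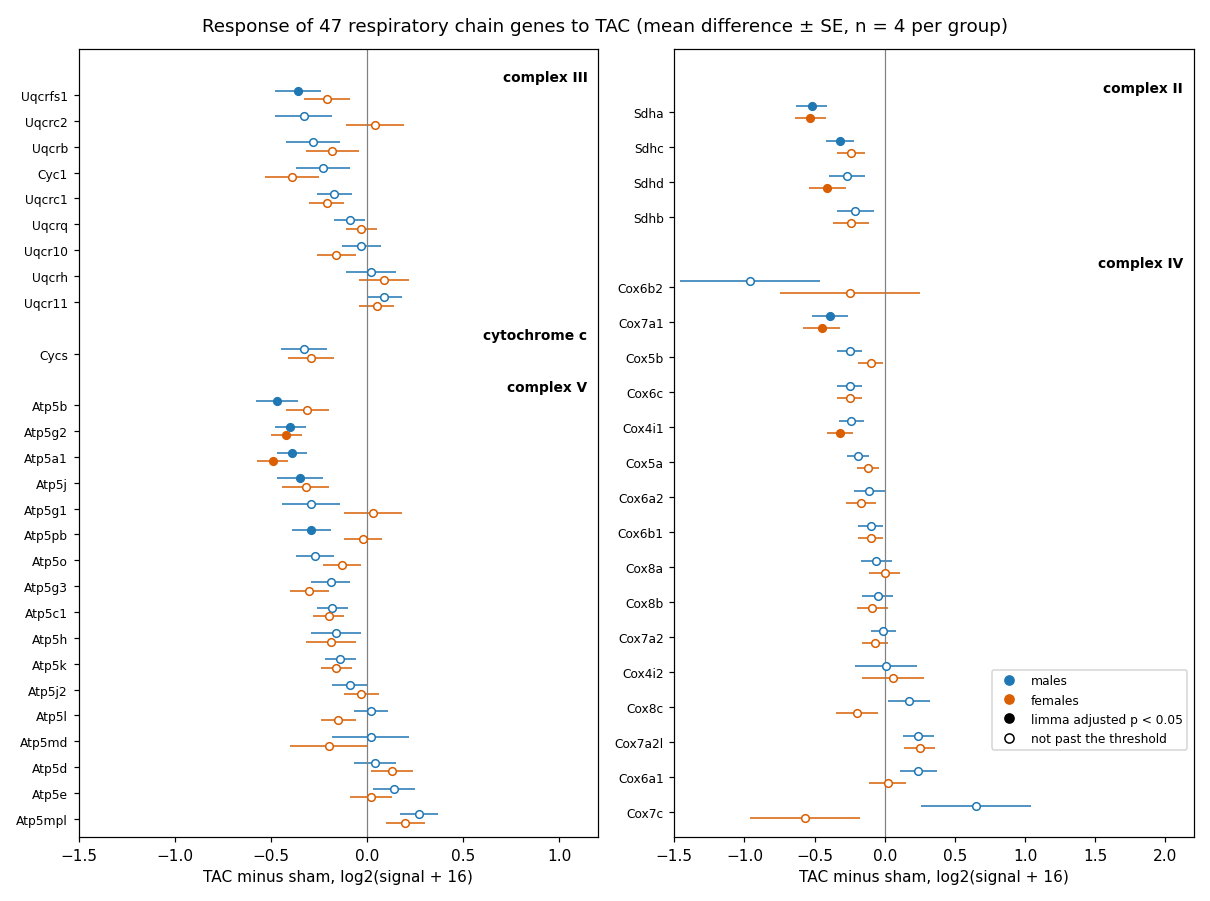
Difference between TAC and sham for each of the 47 genes, on the log2(signal + 16) scale, as the mean difference ± SE from limma with 4 arrays per group, males in blue and females in orange. Filled points passed the adjusted p threshold: 9 in males and 6 in females, all of them left of 0, with Sdha lowest among the filled points at -0.52 and -0.53.

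Counted by probe set instead of by gene, 17 of the 81 tested probe sets fell and 3 rose in males, against 9.77% and 8.07% of all probe sets tested. In females 11 fell and 1 rose, against 8.6% and 6.46%. The male count dropped with any 1 male array left out, from 20 called probe sets to between 12 (without male sham 4) and 18 (without male TAC 5). The calls over all probe sets dropped as well, from 2422 to between 1812 and 2212. The 3 rises belonged to Cox7a2l and Cox6c, whose probe set of highest mean did not pass.

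Promoters are shown for 4 genes whose responses frame the set: Sdha and Atp5g2, which fell in both sexes, Cox7a1, which fell in both sexes and is the muscle form of its subunit, and Cox7a2l, which carried the strongest rise. Sequences are the 250 bases before the RefSeq start on GRCm38.p6, 5' to 3' on the strand of the gene. RefSeq windows were found for 35 of the 47 genes, 38 windows in all, and for 8 of the 11 genes that fell in at least 1 sex. Capitals mark matches, on either strand, to the letters GCGCANGCG (nuclear respiratory factor NRF1), CCGGAAG (ETS family, to which GABP belongs), AAGGTCA (estrogen-related receptors, ERR) or AAGATGGC (YY1). These factors are known regulators of nuclear genes for mitochondrial proteins.
Sdha, chr13:74350241-74350490, minus strand: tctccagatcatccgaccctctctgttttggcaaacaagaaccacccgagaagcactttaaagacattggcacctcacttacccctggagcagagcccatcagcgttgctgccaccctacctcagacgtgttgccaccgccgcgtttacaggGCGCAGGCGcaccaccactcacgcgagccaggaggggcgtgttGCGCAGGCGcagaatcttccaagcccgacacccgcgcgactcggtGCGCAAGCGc
Atp5g2, chr15:102671048-102671297, minus strand: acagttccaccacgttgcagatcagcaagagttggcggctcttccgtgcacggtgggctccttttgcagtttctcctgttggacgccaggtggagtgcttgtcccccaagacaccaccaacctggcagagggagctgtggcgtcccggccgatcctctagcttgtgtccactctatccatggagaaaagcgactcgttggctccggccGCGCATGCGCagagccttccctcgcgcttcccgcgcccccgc
Cox7a1, chr7:30183921-30184170, plus strand: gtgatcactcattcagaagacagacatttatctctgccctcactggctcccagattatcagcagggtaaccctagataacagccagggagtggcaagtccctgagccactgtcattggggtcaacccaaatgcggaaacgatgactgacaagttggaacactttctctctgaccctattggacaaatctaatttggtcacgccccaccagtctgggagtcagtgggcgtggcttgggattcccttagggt
Cox7a2l, chr17:83514334-83514583, minus strand: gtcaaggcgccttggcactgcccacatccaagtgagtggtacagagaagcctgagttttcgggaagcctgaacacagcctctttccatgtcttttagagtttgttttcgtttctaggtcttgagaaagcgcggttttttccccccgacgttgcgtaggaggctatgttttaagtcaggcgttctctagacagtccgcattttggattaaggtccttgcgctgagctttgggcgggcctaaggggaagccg

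The Sdha window held 3 NRF1 matches, whose first bases lay 98, 55 and 10 bases before the start. The Atp5g2 window held 2 overlapping NRF1 matches, 1 on each strand, from 42 and 41 bases before the start. None of the 4 motifs was found in these windows of Cox7a1 and Cox7a2l. Over the set, 9 of 38 windows (23.7%) held the NRF1 letters, against 5.16% of all 32851 windows. The ETS letters also stood in 9 windows (23.7%), against 6.91% of all. On the probe set of highest mean, Sdha, Sdhd and Atp5g2 of the genes with NRF1 letters fell in at least 1 sex. Atp5c1, Atp5h, Atp5k, Atp5l, Cox6a1 and Cycs did not. Of the genes with ETS letters, Sdhd and Atp5j fell in 1 sex each. Atp5e, Atp5h, Atp5l, Cox6a1, Cox6b1, Uqcr11 and Uqcrh did not. The ERR letters stood in 2 windows (5.26%, 4.08% of all) and the YY1 letters in 1 (2.63%, 1.56% of all). A match is a description of the letters and no sign that the factor binds there.

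Complex II, succinate dehydrogenase, joins the citric acid cycle to the respiratory chain, and Sdha, its flavoprotein, oxidises succinate. Signals of Sdha were 17239, 12761, 16066 and 12045 among male shams and 10502, 8701, 10228 and 10721 in male TAC. In females they were 14595, 13034, 13825 and 13566 in shams and 10053, 9744, 9678 and 8711 in TAC. All 8 TAC arrays lay below all 8 sham arrays. Sdha fell by 0.52 ± 0.11 in males (-30.3%, limma adjusted p = 0.00204) and by 0.53 ± 0.11 in females (-30.6%, adjusted p = 0.00228). A further Sdha probe set, 1426689_s_at, had means of 9457 ± 236 (SD, n = 4) among male shams and 6356 ± 496 in male TAC, and of 9289 ± 514 and 6678 ± 610 among female shams and TAC. It fell by 0.58 ± 0.09 in males (limma adjusted p = 0.000147) and by 0.48 ± 0.09 in females (adjusted p = 0.00109), again with no overlap between the groups of either sex.

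Sdhc and Sdhd anchor the enzyme in the membrane and hold its haem and ubiquinone site. Sdhc gave 4124, 3741, 4052 and 3774 among male shams and 3037, 3380, 3145 and 2976 in male TAC, without overlap. It fell by 0.32 ± 0.10 in males (limma adjusted p = 0.0237). That call ended without male TAC 1 or 5 or male sham 1 or 3, with an adjusted p of up to 0.0638. With arrays centred on their median it ended as well. In females Sdhc was 3470, 3629, 3954 and 3439 in shams and 2650, 3207, 3374 and 3020 in TAC. The female groups did not overlap either, but the difference of -0.24 ± 0.10 missed the threshold (limma adjusted p = 0.0946). On its other tested probe set, 1435986_x_at, Sdhc differed by 0.01 ± 0.18 in males (limma adjusted p = 0.971). The female difference there was 0.20 ± 0.18 (adjusted p = 0.541), and sham and TAC arrays overlapped in both sexes.

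Sdhd, the other anchor, was 5957, 6855, 7340 and 6734 among male shams and 5514, 4979, 5454 and 6419 in male TAC. Female values were 5663, 8280, 7300 and 6022 in shams and 4692, 5648, 4364 and 5733 in TAC. Sham and TAC arrays overlapped in both sexes. Sdhd fell by 0.41 ± 0.13 in females (limma adjusted p = 0.0328), and the male difference of -0.27 ± 0.13 did not pass (adjusted p = 0.160). The female call ended without female TAC 1, female TAC 3, female sham 2 or female sham 3, with an adjusted p of up to 0.124. Median centring ended it too. Sdhb, the iron-sulphur protein that carries electrons from the flavin, averaged 26407 ± 4846 (SD, n = 4) among male shams, 22878 ± 4221 in male TAC, 25724 ± 2326 among female shams and 21781 ± 1588 in female TAC. Its differences of -0.21 and -0.24 did not pass in either sex.

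**Figure D2:**
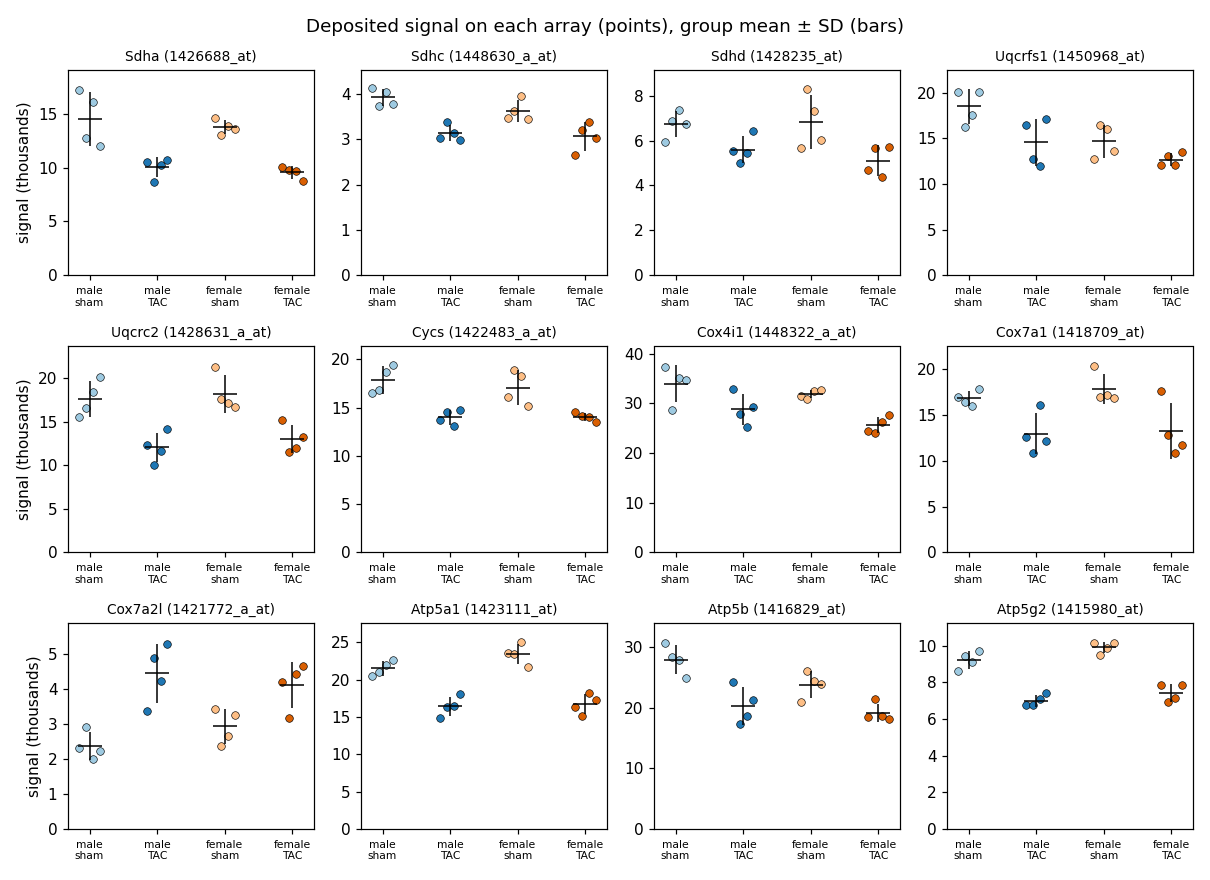
Deposited signal, in units of 1000, on each of the 16 arrays for 12 genes, with 4 points per group and horizontal and vertical bars for the group mean and ± SD; the axes start at 0. TAC points of Sdha, Atp5a1 and Atp5g2 lie below all sham points of the same sex, whereas those of Cox7a2l on 1421772_a_at lie at 3179 to 5268, above most sham points. Uqcrc2, Cycs and Cox7a2l are drawn on the probe set of smallest p in males, not of highest mean, and the others on that of highest mean.

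Complex III passes electrons from ubiquinol to cytochrome c. Its catalytic nuclear-encoded subunits are Uqcrfs1, the Rieske iron-sulphur protein, and Cyc1, cytochrome c1. Uqcrfs1 was 20141, 16233, 17605 and 20085 among male shams and 16431, 12748, 12010 and 17096 in male TAC, and 12716, 16447, 16031 and 13610 among female shams and 12073, 13037, 12055 and 13511 in female TAC. Male TAC 1 and 5 lay within the sham range. Uqcrfs1 fell by 0.36 ± 0.12 in males (limma adjusted p = 0.0424), a call that ended without male TAC 2 or 4 or male sham 1, 3 or 4 (adjusted p of up to 0.141), and its female difference was -0.21 ± 0.12 (adjusted p = 0.269). Under quantile normalization and median centring the male call ended as well. Cyc1 was 16584, 17990, 18658 and 19384 among male shams and 16063, 12382, 14351 and 19866 in male TAC, and 25636, 19838, 18556 and 20938 among female shams and 20870, 14079, 15707 and 14482 in female TAC. Its differences of -0.23 ± 0.14 in males and -0.39 ± 0.14 in females did not pass (limma adjusted p = 0.284 and 0.0645).

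The core proteins Uqcrc1 and Uqcrc2 form the matrix face of the complex. Uqcrc1 was 16852, 15027, 17555 and 15928 among male shams, 16567, 13902, 13930 and 13776 in male TAC, 16404, 14511, 14838 and 16695 among female shams and 13110, 13167, 13598 and 13912 in female TAC. Only the female groups were apart, and neither difference passed (-0.17 and -0.21, limma adjusted p = 0.189 and 0.102). Uqcrc2 gave different readings on its probe sets. On 1435757_a_at, its brightest, the differences were -0.33 ± 0.15 in males (limma adjusted p = 0.141) and 0.04 ± 0.15 in females (adjusted p = 0.912). The male values there were 17133, 17788, 21258 and 19494 in shams and 11337, 16191, 15699 and 17397 in TAC. The female values were 10050, 17027, 15657 and 16606 in shams and 14400, 13316, 16739 and 15297 in TAC. Female sham 1 was the lowest of all 16 arrays, and without it the female difference was -0.14.

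The other Uqcrc2 probe set, 1428631_a_at, was 15482, 16515, 18375 and 20157 among male shams and 12358, 10067, 11617 and 14120 in male TAC. In females it was 21311, 17594, 17152 and 16621 in shams and 15149, 11522, 11962 and 13239 in TAC. No TAC array overlapped a sham array of its sex. On this probe set Uqcrc2 fell by 0.55 ± 0.12 in males (limma adjusted p = 0.00254) and by 0.49 ± 0.12 in females (adjusted p = 0.00758), and without any 1 array of the groups compared it still passed. The female call ended under median centring (-0.37, limma adjusted p = 0.0608), and both calls ended with either covariate in the model (adjusted p of 0.187 and 0.497 in males and 0.0709 and 0.325 in females). None of the 5 small accessory subunits (Uqcrb, Uqcrh, Uqcrq, Uqcr10, Uqcr11) passed in either sex, with medians of -0.03 in both sexes and a range from -0.28 to 0.09.

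Cytochrome c, the soluble carrier between complexes III and IV, is encoded in somatic tissue by Cycs. On 1456071_a_at, its brightest probe set, it was 48692, 41053, 36513 and 36301 among male shams and 38837, 25168, 31035 and 35111 in male TAC, and 36269, 31925, 35802 and 37298 among female shams and 30798, 29383, 27271 and 27828 in female TAC. The female groups did not overlap, but neither difference passed: -0.33 ± 0.12 in males (limma adjusted p = 0.0570) and -0.29 ± 0.12 in females (adjusted p = 0.101). On 1422483_a_at Cycs fell by 0.35 ± 0.09 in males (limma adjusted p = 0.00861) and by 0.27 ± 0.09 in females (adjusted p = 0.0394). Group means there were 17848 ± 1420 (SD, n = 4) and 14003 ± 792 among male shams and TAC, and 17080 ± 1768 and 14065 ± 420 among female shams and TAC. The female call ended in 6 of the 8 fits without 1 female array, all but those without female sham 1 or female sham 4, with an adjusted p of up to 0.132. The male call ended under median centring (-0.29, limma adjusted p = 0.0563) and the female call under both other scalings. The third tested probe set, 1422484_at, differed by -0.04 and -0.06.

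Complex IV, cytochrome c oxidase, reduces oxygen to water. Its nuclear-encoded subunits surround a core made from mitochondrial DNA, and several come in tissue forms. Cox7a1, the heart and skeletal muscle form of subunit 7a, was 16929, 16456, 16046 and 17857 among male shams and 12653, 10876, 16126 and 12190 in male TAC. Female values were 20330, 16932, 17230 and 16898 in shams and 17650, 12800, 10815 and 11746 in TAC. A single TAC array in each sex, male TAC 4 and female TAC 1, lay within the sham range, and the other 3 lay below it. Cox7a1 fell by 0.39 ± 0.13 in males (limma adjusted p = 0.0463) and by 0.45 ± 0.13 in females (adjusted p = 0.0253). The male call ended in 7 of the 8 fits without 1 male array, all but that without male TAC 4, with an adjusted p of up to 0.156. The female call ended without female TAC 2, 3 or 5 or female sham 1, with an adjusted p of up to 0.0915. Both ended under quantile normalization and median centring, and with the Gapdh ratio in the model the male difference was 0.02.

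Cox4i1, the common form of subunit 4 and a regulatory subunit, was 37266, 28558, 35145 and 34743 among male shams and 32818, 27788, 25302 and 29282 in male TAC, and 31485, 30946, 32538 and 32602 among female shams and 24488, 24089, 26170 and 27690 in female TAC. The female groups stood apart and the male groups overlapped. Cox4i1 fell by 0.32 ± 0.09 in females (limma adjusted p = 0.0249), and its male difference was -0.24 ± 0.09 (adjusted p = 0.0893). The female call ended without female TAC 1, female TAC 2, female sham 3 or female sham 4, with an adjusted p of up to 0.0659. It also ended under both other scalings.

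Cox6c and Cox5b came next by p in males and did not pass on their probe set of highest mean. Cox6c, a small subunit of the inner membrane, was 26379, 29082, 30108 and 30786 among male shams and 23678, 22630, 22642 and 29517 in male TAC, and 27932, 28672, 26280 and 27533 among female shams and 22677, 21448, 23614 and 25092 in female TAC. Male TAC 5 alone lay within the male sham range. The differences were -0.25 ± 0.09 in both sexes (limma adjusted p = 0.0663 in males and 0.0677 in females), and without male TAC 5 the male value was -0.34 (adjusted p = 0.00804). Cox5b, a zinc-binding subunit on the matrix side, was 38332, 29793, 37868 and 39260 among male shams and 31491, 31164, 28598 and 29862 in male TAC, and 28293, 32805, 33043 and 29967 among female shams and 26944, 26784, 32211 and 29682 in female TAC. Without the low male sham 2, its male difference of -0.25 ± 0.09 (limma adjusted p = 0.0703) was -0.35 (adjusted p = 0.0111). Its probe sets 1435613_x_at and 1454716_x_at fell in males by 0.33 ± 0.09 (limma adjusted p = 0.0150) and 0.28 ± 0.09 (adjusted p = 0.0352), and 1416902_a_at differed by -0.05. The former call ended without male TAC 1 or male sham 4 (adjusted p of up to 0.0525), and the latter without male TAC 1 or 4 or male sham 2 or 4 (up to 0.120). Both calls ended under quantile normalization and under median centring.

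Some subunits of complex IV exist in a muscle form and a form found in all tissues, and each such pair was read as a log2 ratio within each array, which cancels the array's scaling. The ratio of Cox6a2 to Cox6a1 was 0.34 lower in TAC than in sham in males, 1.85 ± 0.23 (SD, n = 4) against 2.19 ± 0.17 (exact permutation p = 0.0857). With each male array left out in turn, the male difference ran from -0.43 to -0.26. In females the ratio was 1.80 ± 0.37 against 2.00 ± 0.17 (exact permutation p = 0.371). Cox6a2, the muscle form, was 24004, 35299, 34974 and 34261 among male shams and 27293, 31741, 27590 and 31654 in male TAC, and 29023, 29080, 30848 and 30084 among female shams and 23521, 28028, 28857 and 25588 in female TAC. Cox6a1, the common form, was 5903, 6670, 8218 and 7201, then 9059, 8099, 8339 and 7336, among male shams and TAC, and 7725, 8343, 6942 and 6880, then 8800, 5789, 7625 and 8378, among female shams and TAC. Neither gene passed the test in either sex.

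The ratio of Cox7a1 to Cox7a2 was -0.99 ± 0.33 in male TAC and -0.61 ± 0.14 in male shams, a difference of -0.38 (exact permutation p = 0.114, n = 4 in each group). Female values were -0.81 ± 0.43 and -0.43 ± 0.23, a difference of -0.39 (exact permutation p = 0.171). With each array left out in turn, the difference ran from -0.54 to -0.28 in males and from -0.58 to -0.24 in females. Cox7a2, the common form, was 23459, 24753, 28047 and 26805 among male shams and 27410, 26431, 22957 and 25350 in male TAC, and 21713, 25192, 26194 and 22960 among female shams and 20683, 22361, 25530 and 23239 in female TAC, with overlap throughout.

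For Cox8b against Cox8a the ratio differed by 0.01 in males and -0.09 in females (exact permutation p = 0.857 and 0.429). Cox8b, the muscle form, was 23808, 20582, 22365 and 23037 among male shams, 26346, 21465, 18163 and 21468 in male TAC, 19378, 23428, 21097 and 21997 among female shams and 17453, 18806, 22737 and 21925 in female TAC. Cox8a, the common form, was 2875, 3658, 3583 and 3805 among male shams, 3563, 3341, 2882 and 3544 in male TAC, 3509, 3720, 3576 and 3188 among female shams and 3253, 3574, 3416 and 3722 in female TAC. For both genes the TAC and sham arrays of each sex overlapped. Cox4i2, a form known mainly from lung, was dim, with 187, 314, 262 and 278 among male shams, 227, 233, 340 and 243 in male TAC, 230, 278, 243 and 145 among female shams and 220, 239, 212 and 242 in female TAC. Its ratio to Cox4i1 differed by 0.24 in males and 0.37 in females (exact permutation p = 0.429 and 0.0857). With each female array left out in turn, the female difference ran from 0.18 to 0.50. None of these 8 ratio tests passed with all arrays: with 4 arrays against 4 the smallest 2-sided p is 0.0286, and the values adjusted over the 8 tests lay between 0.305 and 0.857.

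Cox7a2l rose in males on 2 of its 3 tested probe sets, which were singled out after the values were seen. It encodes a relative of subunit 7a for which a part in joining complexes III and IV into supercomplexes has been described. Whether the form of the protein made in this mouse strain has that part was not tested. The signals below are of the transcript alone and do not bear on supercomplexes. Probe set 1421772_a_at was 2302, 2926, 1993 and 2242 among male shams and 3374, 4890, 4236 and 5268 in male TAC, and 3417, 2369, 2667 and 3267 among female shams and 4200, 3179, 4420 and 4664 in female TAC. All male TAC arrays lay above all male shams, and female TAC 2 alone fell within the female sham range. On it Cox7a2l rose by 0.90 ± 0.16 in males (86.4%, limma adjusted p = 0.000516) and by 0.49 ± 0.16 in females (40.3%, adjusted p = 0.0426). The male call held in all alternatives tried, and the female call ended without female TAC 1, 3 or 5 or female sham 2 or 3, with an adjusted p of up to 0.140. Under quantile normalization the female call ended as well (0.41, limma adjusted p = 0.0774). On 1432263_a_at Cox7a2l rose by 0.40 ± 0.13 in males (limma adjusted p = 0.0419) and differed by 0.22 ± 0.13 in females. This male call ended without male TAC 2, 4 or 5 or male sham 1, 3 or 4 (adjusted p of up to 0.132). Quantile normalization ended it too. On 1432264_x_at, its brightest, it differed by 0.24 ± 0.11 in males and 0.25 ± 0.11 in females (limma adjusted p = 0.136 and 0.119). The 3 probe sets had the same sign in both sexes.

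Cox6c also gave opposite signs on its probe sets in males. On 1434491_a_at it was 3317, 3279, 3344 and 3795 among male shams and 5361, 3770, 4959 and 4941 in male TAC, and 6205, 4066, 4694 and 4605 among female shams and 5743, 4835, 4288 and 5505 in female TAC. It rose by 0.46 ± 0.13 in males there (limma adjusted p = 0.0205) and differed by 0.07 ± 0.13 in females. The call ended without male TAC 1 or male sham 2 or 3, with an adjusted p of up to 0.0666. By contrast, the brighter 1415970_at differed by -0.25 in both sexes. Cox5a, which neighbours Cox4 on the matrix side, fell in males on 1415933_a_at by 0.34 ± 0.10 (limma adjusted p = 0.0194), with means of 17744 ± 629 (SD, n = 4) in shams and 14140 ± 2157 in TAC, and gave 15980 ± 1044 and 16191 ± 913 among female shams and TAC. The call ended without male TAC 2, male TAC 4 or male sham 2, with an adjusted p of up to 0.0728, and under median centring. On its brightest probe set Cox5a differed by -0.19 and -0.12. The dim genes had wide errors: Cox7c differed by 0.65 ± 0.39 in males and -0.57 ± 0.39 in females, and Cox6b2 by -0.96 and -0.25, and none of these passed. Cox7c was 38.7, 89.2, 203 and 124 among male shams and 158, 144, 172 and 187 in male TAC. Its female values were 174, 147, 237 and 166 in shams and 213, 91.4, 62.4 and 134 in TAC.

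Complex V consists of a soluble F1 head that makes ATP, a membrane part whose ring of c subunits turns as protons pass, and central and peripheral stalks that join them. Atp5a1 and Atp5b encode the alpha and beta subunits that alternate in the head, the beta subunit carrying the catalytic sites. Atp5a1 was 20411, 21054, 21938 and 22635 among male shams and 14867, 16332, 16474 and 18039 in male TAC. In females it was 23484, 23380, 24970 and 21702 in shams and 16363, 15082, 18196 and 17226 in TAC. Every TAC array lay below every sham array, over both sexes. Atp5a1 fell by 0.39 ± 0.08 in males (-23.7%, limma adjusted p = 0.00267) and by 0.49 ± 0.08 in females (-28.6%, adjusted p = 0.000548), and the female call held in all alternatives tried. The male call ended with the 18S signal (-0.27, limma adjusted p = 0.195) or the Gapdh ratio (-0.36, adjusted p = 0.222) in the model. On 1449710_s_at it fell in males by 0.27 ± 0.09 (limma adjusted p = 0.0383) and differed by -0.23 ± 0.09 in females (adjusted p = 0.0798) and, when 1 male array was left out, the male call held without male TAC 5 or male sham 2 and ended otherwise (adjusted p of up to 0.124). It also ended under both other scalings. The dim 1420037_at differed by 0.14 and 0.08.

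Atp5b was 30699, 28273, 27846 and 24814 among male shams and 24291, 17222, 18543 and 21252 in male TAC. Female values were 20855, 26079, 24389 and 23841 in shams and 18518, 21375, 18684 and 18081 in TAC. The male groups did not overlap, and female TAC 2 lay above the lowest female sham. Atp5b fell by 0.47 ± 0.11 in males (-27.6%, limma adjusted p = 0.00425), and its female difference of -0.31 ± 0.11 missed the threshold (adjusted p = 0.0539). The remaining subunits of the head and central stalk did not pass: Atp5c1 (gamma) differed by -0.18 in males and -0.20 in females, Atp5d (delta) by 0.04 and 0.13, and Atp5e (epsilon) by 0.14 and 0.02.

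Subunit c, the ring protein, is encoded by Atp5g1, Atp5g2 and Atp5g3, which give the same mature protein. Atp5g2 was 8611, 9442, 9109 and 9708 among male shams and 6746, 6740, 7076 and 7439 in male TAC, and 10150, 9509, 9865 and 10122 among female shams and 7828, 6915, 7122 and 7863 in female TAC. All TAC arrays lay below all shams, with small spread. Atp5g2 fell by 0.40 ± 0.08 in males (-24.0%, limma adjusted p = 0.00171) and by 0.42 ± 0.08 in females (-25.1%, adjusted p = 0.00143).

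Atp5g1 was 20782, 22527, 25971 and 23816 among male shams and 23555, 21902, 14577 and 16995 in male TAC, and 15250, 21107, 20147 and 16091 among female shams and 14603, 19731, 22729 and 17308 in female TAC. Its groups overlapped in both sexes, with differences of -0.29 ± 0.15 and 0.03 ± 0.15. Atp5g3 was 27448, 26977, 27978 and 32947 among male shams and 23903, 24642, 22774 and 29987 in male TAC, and 27653, 30947, 32592 and 28331 among female shams and 22472, 22166, 26165 and 26744 in female TAC. The female groups did not overlap, and the differences were -0.19 ± 0.10 (limma adjusted p = 0.214) in males and -0.30 ± 0.10 (adjusted p = 0.0534) in females. Of the 3 subunit c genes, 1 passed in each sex, and their responses were not tested against each other.

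The peripheral stalk keeps the head from turning with the ring. Of its 4 genes, Atp5pb (subunit b), Atp5h (d), Atp5j (F6) and Atp5o (the oligomycin sensitivity protein), 2 fell in males and 0 in females on the brightest probe set, and all 4 had negative differences in both sexes. Atp5pb was 15035, 16623, 14795 and 14758 among male shams and 12859, 13295, 11437 and 12458 in male TAC, without overlap, and 12342, 15936, 15068 and 13004 among female shams and 13962, 15610, 13226 and 12755 in female TAC, with overlap. It fell by 0.29 ± 0.10 in males (limma adjusted p = 0.0398), a call that ended in 7 of the 8 fits without 1 male array, all but that without male TAC 2, with an adjusted p of up to 0.112. Both other scalings ended this call too. In females the difference was -0.02 ± 0.10 on this probe set (limma adjusted p = 0.935), but on 1426742_at Atp5pb fell by 0.37 ± 0.10 (adjusted p = 0.0174), from 10861 ± 804 (SD, n = 4) in shams to 8407 ± 747 in TAC. That call ended without female TAC 5 or female sham 2 (adjusted p of up to 0.0632) and under median centring. The male difference there was -0.25 ± 0.10 (adjusted p = 0.0971).

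Atp5j averaged 15620 ± 1531 (SD, n = 4) among male shams, 12325 ± 2329 in male TAC, 16387 ± 523 among female shams and 13141 ± 1416 in female TAC. It fell by 0.35 ± 0.12 in males (limma adjusted p = 0.0387), and the call ended without male TAC 1 or 2 or male sham 2, 3 or 4, with an adjusted p of up to 0.137. Under both other scalings this call ended as well. The female difference was -0.32 ± 0.12 (limma adjusted p = 0.0659). Atp5h fell in both sexes on 1423676_at, by 0.33 ± 0.10 in males (limma adjusted p = 0.0215) and 0.38 ± 0.10 in females (adjusted p = 0.00991), and not on its brightest probe set, where the differences were -0.16 and -0.19. The male call on 1423676_at ended without male TAC 1, male sham 2 or male sham 4, with an adjusted p of up to 0.0784, and under quantile normalization (-0.22, adjusted p = 0.0887) and median centring (-0.27, adjusted p = 0.114). The female call ended under median centring (-0.26, limma adjusted p = 0.130). Atp5o differed by -0.27 and -0.13. None of the 5 accessory subunits of the membrane part (Atp5j2, Atp5k, Atp5l, Atp5md, Atp5mpl) passed in either sex, with values from -0.14 to 0.27 in males and -0.20 to 0.20 in females.

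The readings of a gene often depended on the probe set. Of the 47 genes, 24 had more than 1 tested probe set, 58 probe sets in all. In males 11 of these 24 genes had the same sign on all tested probe sets, among them Sdha, Uqcrc2, Cycs, Cox5a, Cox7a2l, Atp5h and Atp5pb, and 13 had both signs. In the latter, the odd probe set was in part a dim one, as for Sdhd, Uqcrq, Cox5b, Atp5c1 and Atp5a1. For Uqcrb it was a bright one: 1455997_a_at differed by -0.28 ± 0.14 in males and 1416337_at by 0.21 ± 0.13, neither past the threshold. Counting any tested probe set, 14 of the 47 genes had at least 1 that fell in males, where 12.3% of all 8272 genes did, and 10 in females, where 11% did. In either sex 16 had one, against 15.9% of all genes. A gene with more tested probe sets has more chances to be counted here. Probe sets ending in _x_at or _s_at may share probe sequence with other transcripts of a family or its pseudogenes.

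**Figure D3:**
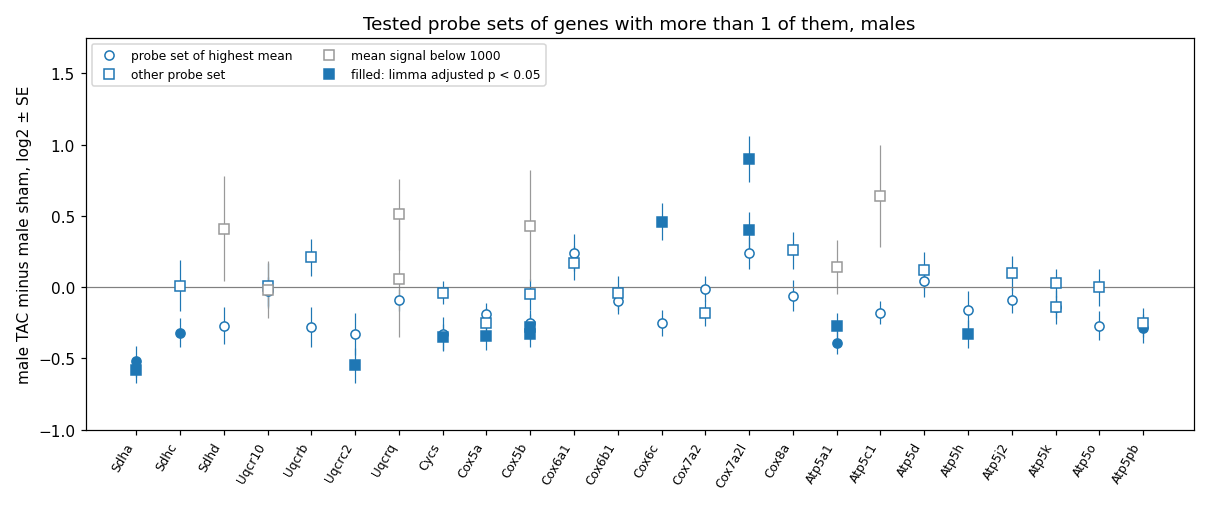
Male TAC minus male sham, log2 difference ± SE, for the 58 tested probe sets of the 24 genes with more than 1 of them. Circles are the probe set of highest mean and squares the others, grey marks a mean signal below 1000, and filled symbols passed the adjusted p threshold; Cox7a2l lies at 0.24 to 0.90 and Sdha at -0.58 to -0.52.

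The study asks how the early response depends on sex. No member passed the test of the female response minus the male response, as was the case for 0.0% of all probe sets tested by limma. At an unadjusted p below 0.05, 3 member probe sets stood out, beside 897 of all 13576 (6.61%). The smallest p was that of Cox5a on 1415933_a_at, with a difference of 0.36 and a 95% interval of 0.07 to 0.65 (limma adjusted p = 0.669). The others were the dim Cox7c, at -1.22 (-2.38 to -0.06), and Cox6c on 1434491_a_at, at -0.39 (-0.79 to -0.00). For genes that fell in both sexes, the intervals of the difference were -0.33 to 0.31 for Sdha, -0.34 to 0.15 for Atp5a1, -0.26 to 0.22 for Atp5g2 and -0.45 to 0.33 for Cox7a1. For Atp5pb, which passed in males alone on its brightest probe set, the difference was 0.27 (-0.01 to 0.56, limma adjusted p = 0.768). No difference between the sexes was detectable for any member with 4 arrays per group, and the intervals give the sizes that these data allow.

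Between the sexes within 1 operation, 0 of the 81 member probe sets passed, in shams (0.309% of all probe sets did) or in TAC (0.0663% did). These comparisons share arrays with those above. In shams the smallest p among the members was that of Cox6c on 1434491_a_at, where females were higher by 0.49 ± 0.13 (limma adjusted p = 0.142). Uqcrfs1 was next, with females at -0.33 ± 0.12 relative to males (adjusted p = 0.303). In TAC the smallest was that of the testis-type Cox8c, at -0.60 ± 0.15 in females relative to males (limma adjusted p = 0.365). The medians over the 47 genes were -0.08 in shams and -0.07 in TAC.

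How far the set lay below sham depended on how the arrays were scaled. The deposited scaling gave a median over the 47 genes of -0.18 in males and -0.17 in females. With quantile normalization it was -0.04 and -0.06, and 5 of the 47 genes fell in each sex. Of all 8272 genes, 614 fell in males and 494 in females under that scaling. With arrays centred on their median, the median over the 47 genes was -0.13 and -0.06, and 4 genes fell in males, and in females 3 fell and 1 rose. Median centring moved the median of all genes from -0.01 to 0.04 in males and to 0.10 in females. Under it 304 of the 8272 genes fell and 812 rose in females, and 483 fell and 776 rose in males. Complex II kept a negative median under each scaling, at -0.29, -0.35 and -0.24 in males and -0.33, -0.39 and -0.21 in females. The medians of complexes III and V and of the complex I subunits also stayed negative in both sexes, between -0.18 and -0.03. The median of complex IV was 0.06 in males under quantile normalization and 0.00 in females under median centring, so no direction is given for it. Cycs on its brightest probe set was 0.01 in females under quantile normalization.

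**Figure D4:**
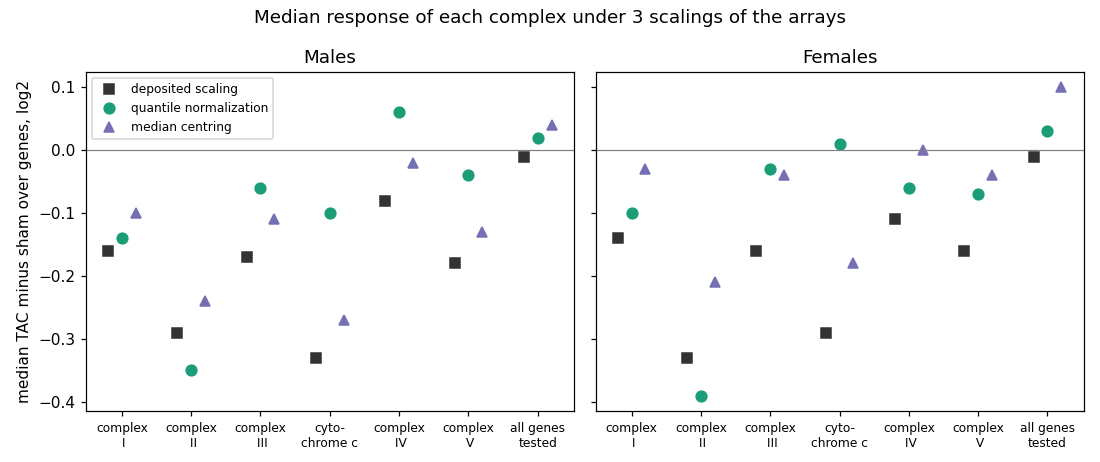
Median difference between TAC and sham over the genes of each complex, log2 scale, in males and females, under the deposited scaling (squares), quantile normalization (circles) and median centring (triangles), with all 8272 genes at the right. Complex II stays between -0.39 and -0.21 and complexes I, III and V between -0.18 and -0.03, whereas complex IV lies between -0.11 and 0.06.

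With the 18S signal as a covariate in the model, 2 member probe sets were called in males and 7 in females, and with the Gapdh 3' to 5' ratio 4 and 1. The counts over all genes also dropped: with the Gapdh ratio 105 of 8272 genes fell and 90 rose in males, and 112 and 108 in females. The 18S signal moves with the operation on average, and the Gapdh ratio separates every TAC array from every sham. Such fits therefore take part of the group difference with these measures. The medians over the 47 genes were -0.05 and -0.10 with the 18S signal and -0.26 and -0.24 with the Gapdh ratio. In males 2 of the 20 calls were kept with the 18S signal, those of Cox7a2l on 1421772_a_at and Sdha on 1426689_s_at. With the Gapdh ratio 3 were kept, Cox7a2l on 1421772_a_at, Atp5pb on its brightest probe set and Cox6c on 1434491_a_at, and Atp5g1 was newly called. In females 7 of the 12 calls were kept with the 18S signal and 1, Atp5a1, with the Gapdh ratio. Sdha on its brightest probe set was at -0.45 and -0.14 in males in these fits and at -0.48 and -0.27 in females. On 1426689_s_at its male difference was -0.55 with the 18S signal (limma adjusted p = 0.0160) and -0.45 with the Gapdh ratio (adjusted p = 0.126). Atp5b was at -0.40 and -0.56 and Atp5g2 at -0.31 and -0.34 in males, none past the threshold. Of the male calls, 11 of 20 were kept under quantile normalization and 9 under median centring, and of the female calls 8 and 5 of 12. Those of both Sdha probe sets and of Atp5a1 and Atp5g2 on their brightest probe sets were kept in both sexes under both scalings.

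Neighbouring genes of the pathway were read from lists. Of 34 complex I subunits, 8 fell and 0 rose in males (median -0.16) and 9 fell and 0 rose in females (median -0.14); the shares over all genes were the 7.77% lower and 8.1% higher in males and 6.69% lower and 6.37% higher in females given above, which also stand beside the counts that follow. Ndufs4 fell by 0.46 ± 0.09 in both sexes (limma adjusted p = 0.00139 in males and 0.00178 in females), and Ndufs1, the large iron-sulphur subunit, fell by 0.70 ± 0.12 in females. Among 11 electron donors to ubiquinone and genes of its synthesis, 4 fell in each sex, with a median of -0.35 in males and -0.24 in females. Etfdh, which feeds electrons from fatty acid oxidation into ubiquinone, fell by 0.96 ± 0.08 in males and 0.78 ± 0.08 in females, and its partner flavoprotein subunits Etfa and Etfb fell by 0.58 ± 0.09 and 0.52 ± 0.09 in females. Etfb also fell in males, by 0.33 ± 0.09 (limma adjusted p = 0.0114). Coq9, needed for ubiquinone synthesis, fell by 0.43 ± 0.09 in males.

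Of 25 assembly factors of complexes II to V, 4 fell and 4 rose in males and 2 fell and 4 rose in females. Tmem70, needed to assemble complex V, fell by 0.81 ± 0.12 in males (limma adjusted p = 8.49e-05) and 0.58 ± 0.12 in females (adjusted p = 0.00221). Uqcc1, a complex III assembly factor, fell by 0.57 ± 0.13 in both, and Cox19, a copper-handling assembly factor of complex IV, rose by 0.68 ± 0.14 and 0.87 ± 0.14. Of 8 genes for ATP export and inhibition of the synthase, 1 passed: Slc25a4, the heart ADP/ATP carrier, fell by 0.34 ± 0.10 in females. Of 15 regulators of mitochondrial biogenesis, 3 fell in males (Tfb2m by 0.62 ± 0.16, Gabpa by 0.61 ± 0.20 and Ppargc1a by 0.57 ± 0.18) and 1 in females (Gabpa by 0.77 ± 0.20), the latter 6.67% of the list and so near the share over all genes. Gabpa encodes the DNA-binding subunit of GABP, whose family letters stood in 9 of the windows described above, and Ppargc1a is a coactivator of NRF1 and the estrogen-related receptors. Whether these changes bear on the subunit genes was not tested.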

How the data were processed

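Left ventricular RNA of 16 mice was measured on 16 one-colour arrays. The authors deposited 1 linear signal intensity for each probe set and array, made with GCOS per the submitters' processing notes; its version and settings are not given in the sources used here. Their values show a global scaling: with 2% of probe sets trimmed at each end, array means were 500.21 to 500.25. RAE 430A is the array name in the series text, whereas probe set names are those of the mouse 430A array. Detection calls were not used here. The number of arrays limits the precision.

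Signals were taken as log2(signal + 16), 64 control probe sets and the dimmest 40% of the others were left out (limit 130.8), and 13576 probe sets of 8272 genes entered limma 3.58.1 (R 4.3.3): 4 group means over 16 arrays, moderation with an intensity trend, 2-sided, Benjamini-Hochberg adjustment. Isoform ratios were tested with an exact permutation test (scipy 1.17.1). The limma step was tested on simulated data. Of the probe sets, 20380 had 1 symbol, 691 several and 1555 none; the 86 members all matched by Entrez ID to RefSeq (GRCm38.p6), with 0 symbols changed.

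The rule for per-array values took up to 3 genes of smallest p in each sex per complex (complex III with cytochrome c), the isoform pairs, the subunit c genes and the 3 smallest p of the difference of responses. Other probe sets were added where sign or call differed, and Cox7a2l, Cox5a and Atp5h after their values were seen. Members and lists were chosen with earlier results of these data known. Alternatives were quantile normalization, median centring, other pseudocounts and filters, no trend, fits of only the groups compared, array weights, a replicate block, 1 probe set per gene, the 18S and Gapdh covariates and each array left out. Labels give 1 animal per array, so the replicates are animals.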

Additional observations from a re-analysis of the deposited data

Results flagged for a closer look

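The rule for per-array values took 25 genes, and their 100 groups of 4 arrays were looked at. Of these, 8 held 1 array whose gap to its nearest neighbour, divided by the whole range, lay above Dixon's critical value for 95% confidence. Chance alone gives such a gap in 1 of 20 groups. Each is given with its ratio and, for the comparison it enters, the difference with and without that array.

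Female sham 1 appeared for 2 genes: it was lowest for Uqcrc2 on 1435757_a_at, with 10050 against 15657 to 17027 (ratio 0.841, difference 0.04 with it and -0.14 without), and highest for Cox7a1, with 20330 against 16898 to 17230 (ratio 0.895, difference -0.45 with it and -0.39 without, limma adjusted p = 0.0253 and 0.0841). Male sham 2 was lowest for Cox5b, with 29793 against 37868 to 39260 (ratio 0.869, difference -0.25 and -0.35), and highest for Atp5pb, with 16623 against 14758 to 15035 (ratio 0.844, difference -0.29 and -0.25). Male sham 1 was lowest for Cox6a2, with 24004 against 34261 to 35299 (ratio 0.923, difference -0.11 and -0.24).

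Male TAC 1 was highest for Uqcrc1, with 16567 against 13776 to 13930 (ratio 0.940, difference -0.17 and -0.23). Male TAC 5 was highest for Cox6c, with 29517 against 22630 to 23678 (ratio 0.830, difference -0.25 and -0.34), and male TAC 4 for the dim Cox4i2, with 340 against 227 to 243 (ratio 0.836, difference 0.01 and -0.12).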

How the results depend on the processing

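Called counts are member probe sets, then all probe sets in the same limma fit. In males they were 20 and 2422, against 11 and 2407 under quantile normalization, 9 and 2277 under median centring, 10 and 2140 without the filter, 8 and 2183 without the intensity trend, 8 and 1265 with 1 probe set per gene, 13 and 2043 with only the groups compared, 2 and 997 with a covariate for the 18S signal and 4 and 398 with one for the Gapdh ratio. In females they were 12 and 2045, against 7 and 2057 under median centring, 7 and 1785 without the filter, 6 and 1761 without the trend, 6 and 1039 with 1 probe set per gene, 7 and 1528 with the 18S signal and 1 and 498 with the Gapdh ratio. Leaving out 1 array gave 12 to 18 member calls in males and 8 to 12 in females. Fewer probe sets or arrays enter some of these fits, and the cause was otherwise not tested. The response difference and both comparisons of the sexes gave 0 calls under each alternative. The sign of a called value turned once, for Cox7a1 in males at 0.025 with the Gapdh ratio.

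Same-numbered TAC and sham arrays of 1 sex were not taken as pairs, since their deviations correlated at -0.03 to 0.115. With the replicate number as a block, 18 member probe sets were called in males and 14 in females.

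For isoform ratios, Cox6a2/Cox6a1 in females was 0.10 and Cox8b/Cox8a in females 0.00 under quantile normalization, and Cox8b/Cox8a in males was -0.15 averaged over all tested probe sets. With 1 array left out, Cox6a2/Cox6a1 in males ran from -0.43 to -0.26, Cox7a1/Cox7a2 from -0.54 to -0.28 in males and -0.58 to -0.24 in females, Cox8b/Cox8a in males from -0.06 to 0.13 and Cox4i2/Cox4i1 in females from 0.18 to 0.50. Median centring moved the split of all probe sets called from 1327 lower and 1095 higher to 1031 and 1246 in males, and from 1168 and 877 to 733 and 1324 in females.

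Dim genes are measured less precisely, with a standard error of 0.39 for Cox7c.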
